A study of Mus musculus with 12 samples.

Results

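The genes of sterol and fatty acid synthesis were followed through the tibial growth plate hypertrophic zones of 2 mouse lines with endoplasmic reticulum (ER) stress. The 32 genes were chosen by name from the sterol pathway, the fatty acid pathway and the SREBP system that controls both, among 27962 gene names on the array, and all 64 of their probes were read. RNA came from microdissected hypertrophic zones of 14 day old mice, amplified over repeated rounds, labelled with Cy3 and hybridised to Agilent whole mouse genome arrays, 1 mouse per array and 3 mice per group. The Schmid group was homozygous for the Col10a1 p.Asn617Lys collagen X mutation, and the Wt_Schmid group was its wildtype littermates. The Cog group (ColXTgcog) expressed the Tg cog mutant thyroglobulin, a secretory protein foreign to cartilage, from a collagen X promoter in hypertrophic cells. Hemizygous and homozygous Cog mice were not told apart, and the Wt_Cog group was their wildtype littermates.

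Cells make cholesterol from acetyl-CoA through mevalonate and squalene, and they build fatty acids from acetyl-CoA through malonyl-CoA. Both pathways are switched on by the SREBP transcription factors, which are made as ER membrane proteins, held back by the Insig proteins, escorted to the Golgi by Scap and released there by the proteases Mbtps1 and Mbtps2. Atf6, a sensor of misfolded protein in the ER, is released by the same pair of proteases, so the sterol genes were set beside the ER stress genes on the same arrays.

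Few of the sterol and fatty acid genes changed by 2-fold or more, 3 of the 32 in Schmid and 1 in Cog. Over the whole array, 4118 of 27935 genes changed by that much in Schmid and 1636 in Cog. A gene was read by its brightest probe, the one with the highest mean over the 12 arrays, and was called when it changed by 2-fold or more with a limma adjusted p of 0.05 or less. In Schmid, 1 of the 32 genes was called higher (Srebf1), against 5.81% of all genes on the array, and 2 were called lower (Dhcr7 and Elovl6), against 5.7% of all genes. In Cog, none was called higher, against 1.91% of all genes, and 5 (15.6%) were higher at an unadjusted limma p of 0.05 or less, near the 12.2% of all genes. In Schmid 4 (12.5%) were higher and 8 (25%) lower at that unadjusted p, near the 16.7% and 23.9% of all genes. At the adjusted p with no fold limit, 8 of the 32 changed in Schmid, as did 7052 of 27935 genes with values on all arrays. In Cog 1 gene, Mvk, was called lower, against 0.833% of all genes. The median log2 fold change of the 32 genes was -0.11 in Schmid, where the median over all genes was -0.09, and 0.26 in Cog, where it was 0; with Agilent's processed signal scaled at the 75th percentile, the Cog median was 0.11 and lay below that of all genes, 0.31.

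The same picture was given by the arrays taken singly. All 3 Schmid arrays lay above all 3 Wt_Schmid arrays for 2 of the 32 genes, against 18.7% of all genes, and below them for 10, against 27.7%. All 3 Cog arrays lay above the Wt_Cog arrays for 5 of the 32, against 17.2%, and below them for 1, against 13.3%. These shares lie near those of the whole array, apart from the small number above in Schmid and below in Cog.

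**Figure D1:**
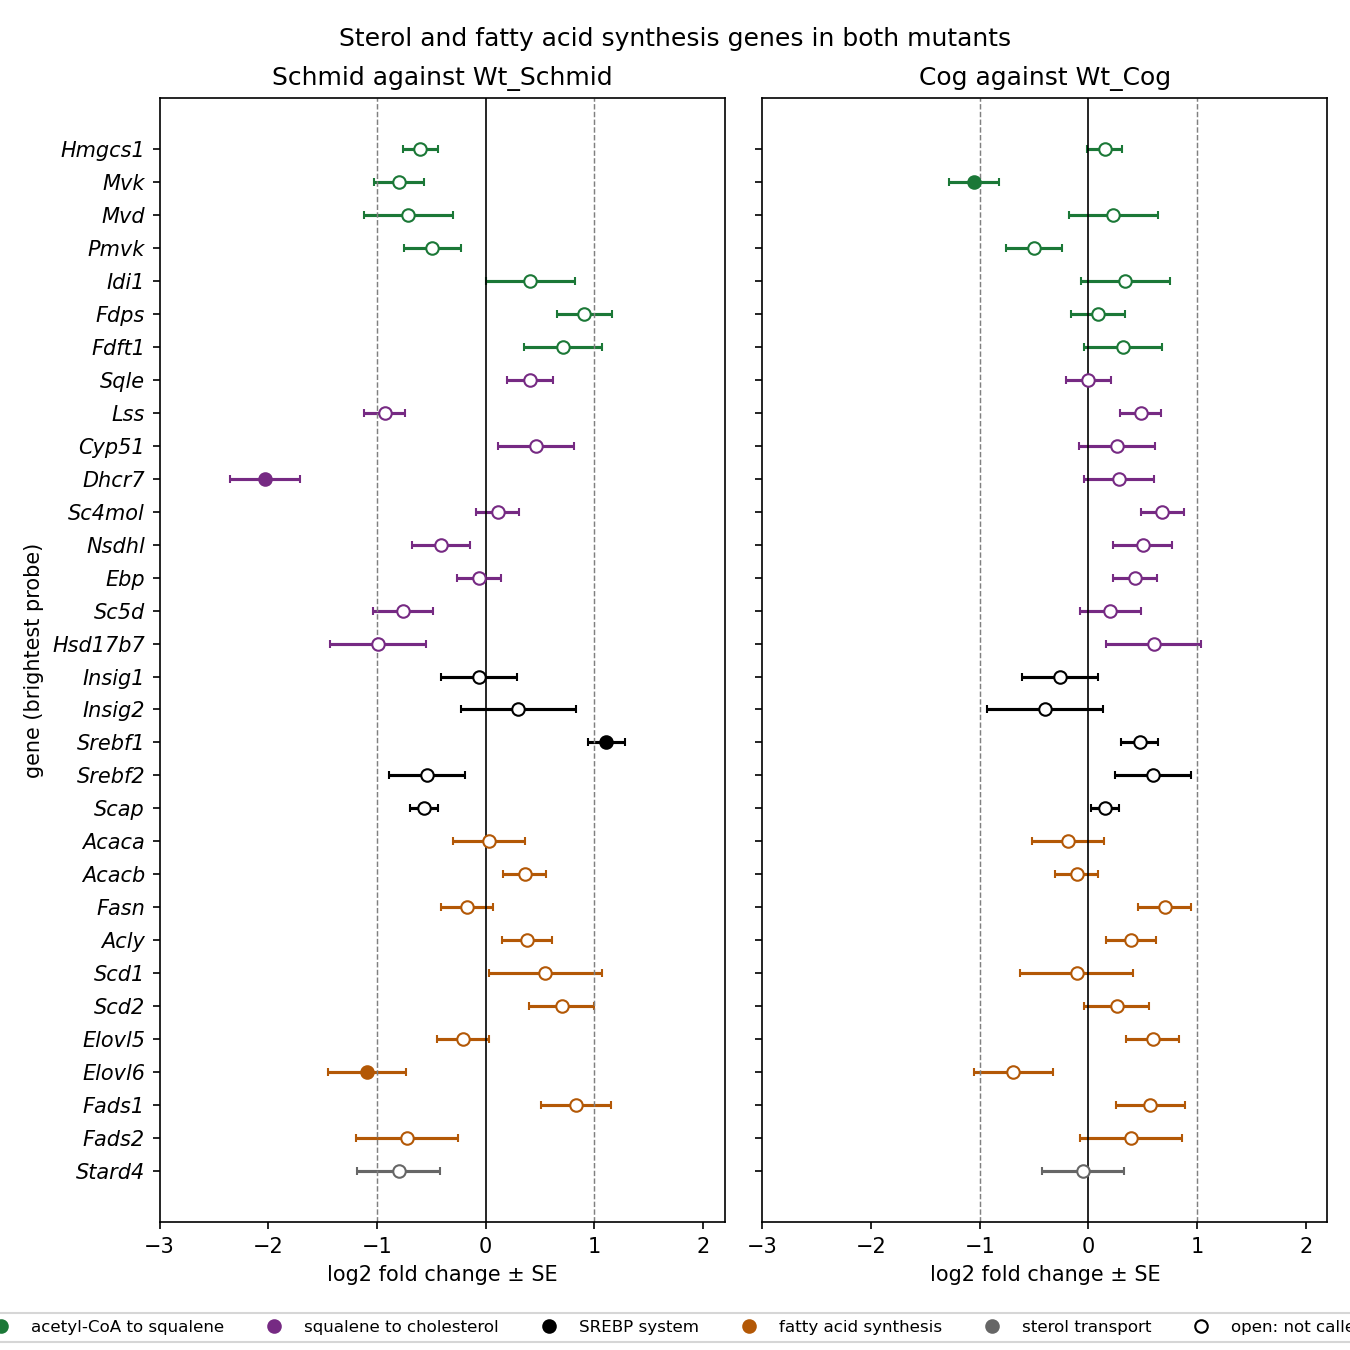
Log2 fold change of each of the 32 genes (brightest probe, pathway order from top to bottom) in Schmid against Wt_Schmid (left) and Cog against Wt_Cog (right), with bars of 1 standard error from limma over all 12 arrays, and dashed lines at 2-fold. Filled points are called: Srebf1 at 1.11, Dhcr7 at -2.03 and Elovl6 at -1.09 in Schmid, and Mvk at -1.05 in Cog.

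The promoters of the sterol and fatty acid genes and of the ER stress genes share some sequence features and differ in others. RefSeq windows (build GRCm38.p6, from 250 bases before to 50 after each start) were at hand for 25 of the 32 genes, and a gene was counted when any of its windows held the motif on either strand. The ER stress response element, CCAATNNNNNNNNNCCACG, to which Atf6 binds together with the factor NF-Y, was held by 8 of 16 Atf6/Xbp1 target genes, by 1 of the 25 sterol and fatty acid genes (Acacb) and by 0.137% of all genes. The NF-Y box alone, CCAAT, which lies inside that element, was held by 21 of the 25, as by 15 of the 16 Atf6/Xbp1 targets, and by 41.1% of all genes. By branch it was held by 5 of 5 genes before squalene, 8 of 8 after it, 4 of 5 of the SREBP system and 4 of 7 of fatty acid synthesis. The GC box, GGGCGG, was held by 19 of the 25 and by 38.2% of all genes, and the palindromic E-box, CACGTG, by 6 of the 25 and by 8.09%. A sterol regulatory element core, TCACNCCAC, was held by 1 of the 25 (Hmgcs1) and by 1.44% of all genes. The stretches below lie before the start, read 5′ to 3′ on the gene's strand. In Hspa5 and Creld2, both called higher in each mutant, and in Acacb, called in neither, the capitals mark the ER stress response element (read on the other strand in Creld2). In Hmgcs1 they mark the sterol element, and in Dhcr7 and Srebf1, the members with the smallest adjusted p in Schmid, the NF-Y boxes on either strand. Dhcr7 and Srebf1 each have other RefSeq starts, not shown, and the 100 bases before those held no NF-Y box.
Hspa5, chr2:34771985-34772083, plus strand: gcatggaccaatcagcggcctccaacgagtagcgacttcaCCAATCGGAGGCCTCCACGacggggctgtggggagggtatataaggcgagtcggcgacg
Creld2, chr15:88819480-88819578, plus strand: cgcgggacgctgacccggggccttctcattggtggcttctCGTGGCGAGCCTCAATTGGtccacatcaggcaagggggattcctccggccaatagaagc
Acacb, chr5:114165391-114165489, plus strand: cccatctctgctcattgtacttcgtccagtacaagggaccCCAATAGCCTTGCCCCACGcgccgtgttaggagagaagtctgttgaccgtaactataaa
Hmgcs1, chr13:119690174-119690262, plus strand: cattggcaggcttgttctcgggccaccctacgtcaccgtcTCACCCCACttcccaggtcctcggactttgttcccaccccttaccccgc
Dhcr7, chr7:143830114-143830213, plus strand: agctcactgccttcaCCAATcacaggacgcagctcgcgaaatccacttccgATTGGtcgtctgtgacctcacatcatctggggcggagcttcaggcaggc
Srebf1, chr11:60210472-60210571, minus strand: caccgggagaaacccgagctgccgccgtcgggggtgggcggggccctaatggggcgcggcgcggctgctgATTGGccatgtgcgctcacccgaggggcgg
A match is a run of letters in the window and says nothing of whether a factor bound there in these cells.

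Srebf1, the SREBP gene best known for driving fatty acid synthesis, was the one gene of the set called higher in Schmid at 2-fold or more on its brightest probe. Its probe (mm7 chr11:60281270-60281329, minus strand; the array has no other Srebf1 probe) read 15.69, 15.96 and 16.02 on the Schmid arrays and 15.02, 14.74 and 14.57 on the Wt_Schmid arrays, as normalised log2 intensity. The Cog arrays read 13.99, 13.74 and 13.92, and the Wt_Cog arrays 13.14, 13.46 and 13.65. The mutant arrays lay above their own wildtype arrays in each line without overlap. The log2 fold change was 1.11 ± 0.17 (SE, 3 arrays against 3) in Schmid, a 2.16-fold rise with a limma adjusted p of 0.00156. In Cog it was 0.47 ± 0.17, below 2-fold, with a limma adjusted p of 0.144. The difference between these changes, 0.65 ± 0.24, had a limma adjusted p of 0.0896, so a larger change in Schmid than in Cog was not shown.

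The wildtype littermates of the lines also differed in Srebf1. Wt_Schmid stood 1.36 ± 0.17 above Wt_Cog on the log2 scale, 2.57-fold, with a limma adjusted p of 0.00904, and it was the only gene of the 32 called between the wildtype groups, against 0.533% of all genes. No slide held wildtype arrays of both lines, so line and slide cannot be told apart in this comparison. On the slide that Wt_Schmid replicate 3 shared with Cog, it read 14.57 beside Cog values of 13.74 to 13.99.

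Srebf2, the SREBP gene best known for driving cholesterol synthesis, was not called in either mutant. Its brightest probe read 15.42, 16.64 and 16.47 in Schmid and 16.27, 16.92 and 16.96 in Wt_Schmid. It read 17.21, 17.13 and 16.67 in Cog and 15.93, 16.44 and 16.87 in Wt_Cog. The groups overlapped in both lines, at changes of -0.54 ± 0.35 and 0.59 ± 0.35. The other probes that read above background on every array gave 0.09 and 0.17 in Schmid and -0.14 and -0.30 in Cog, opposite in sign to the brightest probe in each line, and the direction of Srebf2 was therefore not settled. A dim probe, above background on 6 of 12 arrays, gave 0.36 in Schmid and -0.47 in Cog, and its difference of 0.83 passed the limma test (adjusted p of 0.0125), opposite in sign to the -1.13 of the brightest.

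Scap, the escort of SREBP from the ER to the Golgi, was lower in Schmid by less than 2-fold and differed between the mutants. Its only probe (mm7 chr9:110082822-110082881) read 14.54, 14.49 and 14.45 in Schmid against 15.12, 15.22 and 14.86 in Wt_Schmid. In Cog it read 15.11, 14.86 and 15.08, and in Wt_Cog 14.78, 14.81 and 15.02. The Schmid arrays were the 3 lowest of the 12 and close to each other. The log2 change was -0.57 ± 0.13 in Schmid (limma adjusted p of 0.00986) and 0.15 ± 0.13 in Cog (0.541). The difference of the changes was -0.72 ± 0.18, with a limma adjusted p of 0.0221, or 0.0439 with the replicate number as a block. That difference was lost with normexp values scaled at the 75th percentile (-0.31, limma adjusted p of 0.512), with the processed signal (-0.93, 0.147), where the size did not shrink, and without Schmid replicate 3 (0.0522), Wt_Schmid replicate 2 (0.0521) or Wt_Cog replicate 2 (0.0592).

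The Insig genes, which hold the SREBP and Scap complex in the ER and of which Insig1 is itself a well known SREBP target, changed little against a wide spread. Insig1 read 11.41, 11.23 and 11.44 in Schmid against 10.95, 11.90 and 11.39 in Wt_Schmid, and 11.54, 10.63 and 10.23 in Cog against 10.54, 11.25 and 11.40 in Wt_Cog. The groups overlapped in both lines. The log2 change of Insig1 was -0.06 in Schmid (95% interval -0.83 to 0.72) and -0.26 in Cog (-1.04 to 0.52). Insig2 read 15.52, 14.77 and 14.79 in Schmid against 15.67, 14.38 and 14.14 in Wt_Schmid, and 14.27, 14.90 and 15.23 in Cog against 16.36, 14.81 and 14.43 in Wt_Cog. Replicate 1 was the highest Insig2 array of both wildtype groups and of Schmid. Insig2 changed by 0.30 in Schmid (95% interval -0.88 to 1.48) and by -0.40 in Cog (-1.58 to 0.78), which leaves room for a 2-fold rise in Schmid and a 2-fold fall in Cog. A second Insig2 probe, above background on 10 of 12 arrays, gave 1.84 in Schmid and 1.51 in Cog, neither called (limma adjusted p of 0.115 and 0.312).

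**Figure D2:**
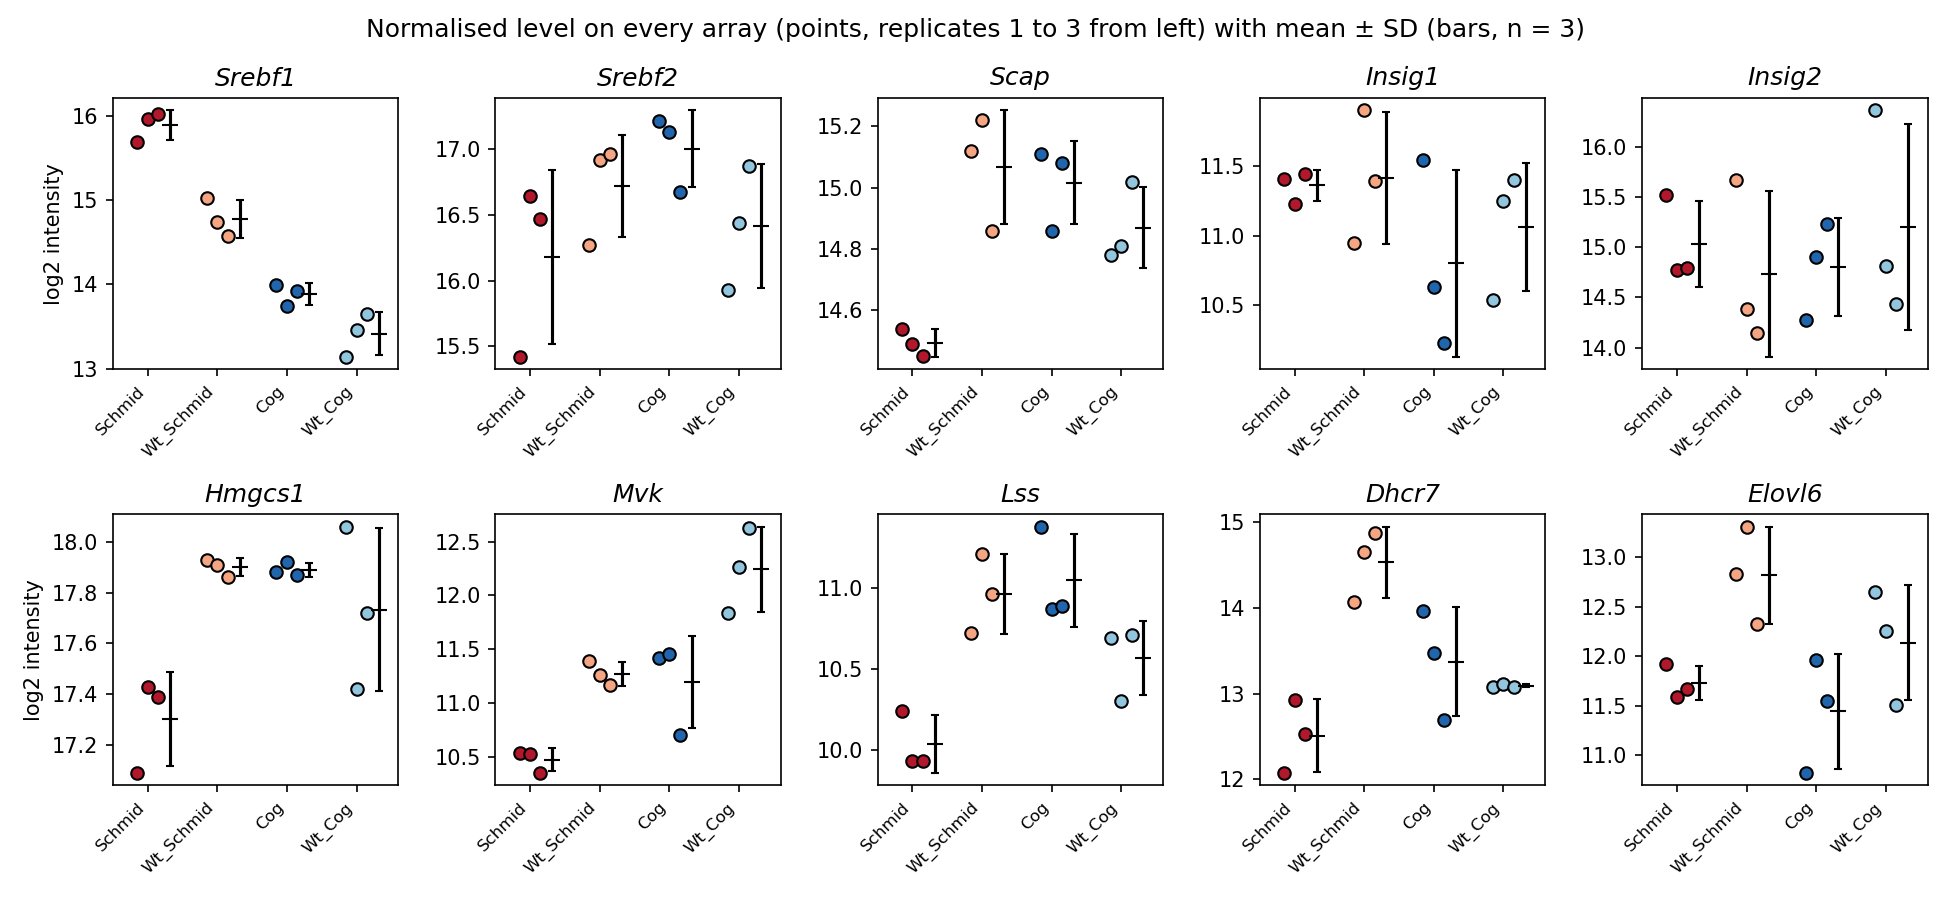
Normalised log2 intensity of 10 genes on every array, with replicates 1 to 3 from left to right in each group, and the mean ± SD of the 3 arrays as bars. Each panel has its own axis, since levels of different probes are not comparable. Schmid lay above Wt_Schmid on every array for Srebf1 and below it for Scap, Hmgcs1, Mvk, Lss, Dhcr7 and Elovl6, and the groups overlapped for Srebf2, Insig1 and Insig2.

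Of the 7 enzymes that carry acetyl-CoA units to squalene, none was called in Schmid and 1 was called lower in Cog. In Schmid, Mvk, Hmgcs1 and Fdps passed the adjusted p alone, the first 2 lower and Fdps higher. In Schmid the 7 changes lay between -0.80 (Mvk) and 0.91 (Fdps), and in Cog between -1.05 (Mvk) and 0.34 (Idi1). Pmvk, the kinase that follows Mvk, was lower without being called, at -0.49 in Schmid and -0.50 in Cog, and its second probe gave -0.60 and -0.73.

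Mvk, mevalonate kinase, was lower in each mutant than in its own wildtype. Its brightest probe (mm7 chr5:113674161-113674220) read 10.54, 10.53 and 10.35 in Schmid against 11.39, 11.26 and 11.17 in Wt_Schmid, and 11.42, 11.46 and 10.70 in Cog against 11.84, 12.26 and 12.63 in Wt_Cog. No array overlapped in either line. The wildtype groups also differed on this probe, with Wt_Schmid minus Wt_Cog at -0.97 ± 0.23 (limma adjusted p of 0.0851, not called). The mean of Cog, 11.19, lay near that of Wt_Schmid, 11.27, and Wt_Cog stood higher, at 12.24. The log2 change was -0.80 ± 0.23 in Schmid, 1.74-fold lower with a limma adjusted p of 0.0309, and -1.05 ± 0.23 in Cog, 2.07-fold lower with a limma adjusted p of 0.0325. The second Mvk probe, well above background on 10 of 12 arrays, gave 0.57 in Schmid and -0.63 in Cog, neither called, so the fall in Schmid rested on 1 probe. With the trend across array rows removed, the Schmid change was -0.49 (limma adjusted p of 0.147). The Cog call was lost with only Cog and Wt_Cog fitted (-1.05, limma adjusted p of 0.13), with the processed signal (-1.37, 0.125) and with normexp values scaled at the 75th percentile (-1.03, 0.0701), in each case on the p and not on the fold, and without Schmid replicate 2 or 3, Cog replicate 3, or Wt_Cog replicate 2 or 3 (changes of -1.05 to -0.80).

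Hmgcs1, which makes the precursor of mevalonate and is a classic SREBP target, was lower in Schmid by less than 2-fold. It read 17.09, 17.43 and 17.39 in Schmid against 17.93, 17.91 and 17.86 in Wt_Schmid, and 17.88, 17.92 and 17.87 in Cog against 18.06, 17.42 and 17.72 in Wt_Cog. The Schmid arrays lay below all Wt_Schmid arrays and the Cog arrays lay within the range of theirs. The change of -0.60 ± 0.16 in Schmid had a limma adjusted p of 0.0219, and the change of 0.15 ± 0.16 in Cog one of 0.617. Their difference, -0.75 ± 0.22, had a limma adjusted p of 0.044, which rose above 0.05 on leaving out any single array but Wt_Cog replicate 1, and with the replicate number as a block (0.0729). The Schmid change itself missed 0.05 without Schmid replicate 1 (0.0805), Wt_Schmid replicate 2 (0.0651) or Wt_Schmid replicate 3 (0.0502), and the mean over the 3 Hmgcs1 probes, of which the other two were dim, was 0.10.

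Fdps, farnesyl diphosphate synthase, was read in opposite ways by its probes. The brightest read 14.78, 14.34 and 14.16 in Schmid against 13.93, 12.88 and 13.74 in Wt_Schmid, a change of 0.91 with a limma adjusted p of 0.0247, and it changed by 0.09 in Cog. The dimmer probe, designed on a clone sequence and well above background on all 12 arrays, read 12.75, 12.85 and 12.49 in Cog against 11.37, 11.66 and 11.39 in Wt_Cog. On that probe the change in Cog was 1.22 ± 0.21, 2.34-fold with a limma adjusted p of 0.0147, and in Schmid it was -0.42. The probes thus rose in different mutants, and no single direction is given for Fdps. On the dimmer probe Wt_Schmid also stood 0.97 above Wt_Cog (limma adjusted p of 0.0686, not called). The means there were 12.44 in Wt_Schmid and 11.47 in Wt_Cog, beside 12.7 in Cog.

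Of the 9 enzymes from squalene to cholesterol, 1 was called in Schmid (Dhcr7, lower) and none in Cog. At an unadjusted limma p of 0.05 or less, 4 of the 9 were lower in Schmid, against 23.9% of all genes, and 2 were higher in Cog, against 12.2%. The medians were -0.41 in Schmid and 0.43 in Cog, and the 9 changes in Cog ran from 0 to 0.68. Sc4mol, the methyl sterol oxidase now named Msmo1, had the largest of the Cog changes, 0.68 (limma adjusted p of 0.0831), and read 17.57, 17.65 and 17.79 in Cog against 17.47, 16.68 and 16.83 in Wt_Cog, all 3 above.

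Dhcr7, dehydrocholesterol reductase, which makes cholesterol in the last step of one branch of the pathway, had the largest change among the 32 genes. Its brightest probe (mm7 chr7:140275628-140275687) read 12.07, 12.92 and 12.53 in Schmid against 14.07, 14.65 and 14.88 in Wt_Schmid, and 13.96, 13.47 and 12.69 in Cog against 13.08, 13.11 and 13.08 in Wt_Cog. The Schmid arrays lay more than 2-fold below every Wt_Schmid array, and the Cog arrays lay on either side of theirs. The log2 change in Schmid was -2.03 ± 0.32, 4.07-fold lower with a limma adjusted p of 0.00205. In Cog it was 0.28 ± 0.32 (0.665), and the difference of the changes was -2.31 ± 0.46, with a limma adjusted p of 0.00865. The second Dhcr7 probe, well above background on 6 of 12 arrays, read between 9.18 and 9.90 throughout and changed by 0.26 in Schmid and -0.43 in Cog. On the mean of both probes the Schmid change was -0.88, below 2-fold, with a limma adjusted p of 0.00579. The wildtype groups stood 1.44 apart on the brightest probe, with Wt_Schmid higher and a limma adjusted p of 0.0722, and Schmid lay nearer to Wt_Cog than Wt_Schmid did.

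Lss, lanosterol synthase, which closes the sterol rings, fell in Schmid short of 2-fold. Its brightest probe (mm7 chr10:76206315-76206374) read 10.24, 9.93 and 9.93 in Schmid against 10.72, 11.21 and 10.96 in Wt_Schmid, and 11.38, 10.87 and 10.89 in Cog against 10.69, 10.30 and 10.71 in Wt_Cog. The arrays of mutant and wildtype did not overlap in either line and the directions were opposite. The changes were -0.93 ± 0.19 in Schmid (limma adjusted p of 0.00661) and 0.48 ± 0.19 in Cog (0.173), and their difference was -1.41 ± 0.27, with a limma adjusted p of 0.00689. The other Lss probes did not share this. One gave -0.07 in Schmid and -0.34 in Cog, and the third, above background on 5 of 12 arrays, gave 1.65 and 0.56. With the trends across array rows and probe base composition removed, the difference shrank to -0.71 (limma adjusted p of 0.0968), and on the mean over the 3 probes the Schmid change was 0.22.

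Hsd17b7, the keto reductase of the demethylation steps, was lower in Schmid on both of its probes. The brightest read 12.86, 13.22 and 12.66 in Schmid against 14.20, 14.51 and 13.01 in Wt_Schmid, and 12.90, 14.14 and 14.32 in Cog against 13.61, 13.10 and 12.85 in Wt_Cog. The second read 11.77, 12.60 and 12.46 in Schmid against 13.42, 13.14 and 12.97 in Wt_Schmid, and 13.38, 12.94 and 13.44 in Cog against 12.27, 12.96 and 12.60 in Wt_Cog. Schmid overlapped its wildtype on the first probe and not on the second, and Cog overlapped its wildtype on both. The changes were -0.99 and -0.90 in Schmid, with limma adjusted p values of 0.123 and 0.0281, and 0.60 and 0.64 in Cog. The difference between the mutants was -1.59 on the brightest probe (0.108) and -1.55 on the second (0.0167).

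Of the 10 genes of fatty acid synthesis, elongation and desaturation, 1 was called lower in Schmid (Elovl6) and none in Cog. At an unadjusted limma p of 0.05 or less, 2 of the 10 were higher and 1 lower in Schmid, against 16.7% and 23.9% of all genes, and 2 were higher in Cog, against 12.2%. Their medians were 0.20 in Schmid and 0.32 in Cog. Fasn, the fatty acid synthase itself, changed by -0.17 in Schmid and 0.70 in Cog, neither called, with 95% intervals from -0.71 to 0.37 and from 0.16 to 1.24. In Cog all 3 Fasn arrays (16.06, 15.57 and 15.08) lay above the Wt_Cog arrays (14.87, 14.78 and 14.96). In Schmid, Acly, which makes cytosolic acetyl-CoA and was the one dim gene of the set, changed by 0.38, Scd1 by 0.55 and Fads2, another desaturase of polyunsaturated chains, by -0.72, none of them called. Fads1, a desaturase of polyunsaturated chains, had the largest rise of the branch in Schmid, 0.83, with a limma adjusted p of 0.0789, and Scd2, a stearoyl-CoA desaturase like Scd1, changed by 0.70 (0.115).

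Acaca, which makes malonyl-CoA, was read by 4 probes that did not move together. The brightest read 10.71, 11.16 and 11.12 in Schmid against 10.14, 11.05 and 11.71 in Wt_Schmid and gave 0.03. The second read 10.08, 10.32 and 10.34 in Schmid against 10.46, 10.99 and 10.98 in Wt_Schmid, and 10.81, 10.76 and 10.95 in Cog against 10.10, 10.25 and 10.54 in Wt_Cog. On that probe neither pair of groups overlapped, Schmid lay below its wildtype and Cog above, and the difference of -1.10 had a limma adjusted p of 0.0128. The remaining probes, above background on 3 and on 0 of 12 arrays, gave 0.48 and -0.05 in Schmid.

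Elovl6, which lengthens palmitate to stearate, passed the threshold in Schmid by a small margin. It read 11.92, 11.59 and 11.67 in Schmid against 12.83, 13.30 and 12.32 in Wt_Schmid, and 10.82, 11.96 and 11.55 in Cog against 12.65, 12.25 and 11.51 in Wt_Cog. The Schmid arrays lay below all Wt_Schmid arrays, and the Cog arrays overlapped theirs. The log2 change was -1.09 ± 0.36 in Schmid, with a limma adjusted p of 0.0499, or 0.0508 with the replicate number as a block, and -0.69 ± 0.36 in Cog (0.301). Of 23 alternative settings, 12 kept the Schmid call. It was lost without any 1 of the Schmid arrays, Wt_Schmid replicate 1 or 2, Cog replicate 3 or Wt_Cog replicate 2 (changes of -1.19 to -0.85). Elovl5, an elongase of unsaturated chains, was not called on its brightest probe (-0.21 in Schmid), while a dim second probe, above background on 4 of 12 arrays, was called higher in Schmid at 1.18 with a limma adjusted p of 0.0469.

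Stard4, a carrier of cholesterol inside the cell and the one transport gene of the set, was not called, at -0.80 in Schmid and -0.05 in Cog. Its arrays read 13.31, 14.44 and 14.03 in Schmid and 14.70, 14.67 and 14.81 in Wt_Schmid. The Schmid arrays lay below those of the wildtype by unequal amounts, from a slight one in replicate 2 to more than 2-fold in replicate 1.

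The ER stress genes were read on the same arrays. Of 17 measured Atf6/Xbp1 targets (chaperones, folding enzymes and ER degradation factors), 15 were called higher in Schmid and 16 in Cog, with median log2 changes of 1.92 and 2.24. Of 7 genes of the Perk, Atf4 and Chop arm, 5 were called higher in Schmid and 4 in Cog. Over the whole array 5.81% of genes were called higher in Schmid and 1.91% in Cog. These lists were drawn up knowing that the mice had been described as having ER stress, so neither their direction nor the size of their change is independent evidence. Their median serves below only as a size to read the other intervals against, and no conclusion is drawn from the contrast. On brightest probes, all 32 sterol and fatty acid genes had a 95% interval that ended below the median change of the Atf6/Xbp1 targets, in Schmid (highest upper end 1.71) and in Cog (1.58). Of their 32 other probes, intervals reached that median for 4 in Schmid (of Insig2, Lss, Elovl5 and Sc5d, with upper ends of 3.62, 2.90, 2.02 and 1.93) and for 1 in Cog (of Insig2, 3.28). On brightest probes the intervals excluded a 2-fold rise for 23 of the 32 in Schmid and for 18 in Cog. They excluded a 2-fold fall for 20 in Schmid and 26 in Cog. Only 11 in Schmid and 13 in Cog lay within 2-fold both ways, so a gene that was not called is not shown to be unchanged.

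Hspa5 (BiP), the main ER chaperone, read 18.18, 18.53 and 18.55 in Schmid against 17.05, 16.03 and 16.14 in Wt_Schmid, and 18.70, 18.99 and 18.50 in Cog against 17.04, 16.20 and 16.25 in Wt_Cog. That was a 4.03-fold rise in Schmid (limma adjusted p of 0.0014) and a 4.71-fold rise in Cog (0.00522). Ddit3 (Chop), the factor of the Perk arm, rose 22.6-fold in Schmid and 12.7-fold in Cog, with limma adjusted p values of 8.2e-06 and 7.98e-05. No array of a mutant overlapped its wildtype for either gene.

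The machinery shared with SREBP was measured too. Atf6 mRNA rose 3-fold in Schmid (log2 1.59 ± 0.24, limma adjusted p of 0.00142) and 5.54-fold in Cog (2.47 ± 0.24, limma adjusted p of 0.00103). Mbtps1, the first of the proteases to cut, read 14.69, 15.83 and 15.84 in Schmid against 16.04, 15.69 and 15.41 in Wt_Schmid, and changed by -0.26 in Schmid and 0.23 in Cog, neither called. Mbtps2, the protease that cuts inside the membrane, was dim, well above background on the 3 Schmid arrays and 1 Wt_Schmid array only, and changed by 0.67 in Schmid, with a limma adjusted p of 0.0761. In Cog and Wt_Cog it passed the background call on no array, and no change is given there. The arrays measure mRNA, so the cutting of either factor was not observed.

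**Figure D3:**
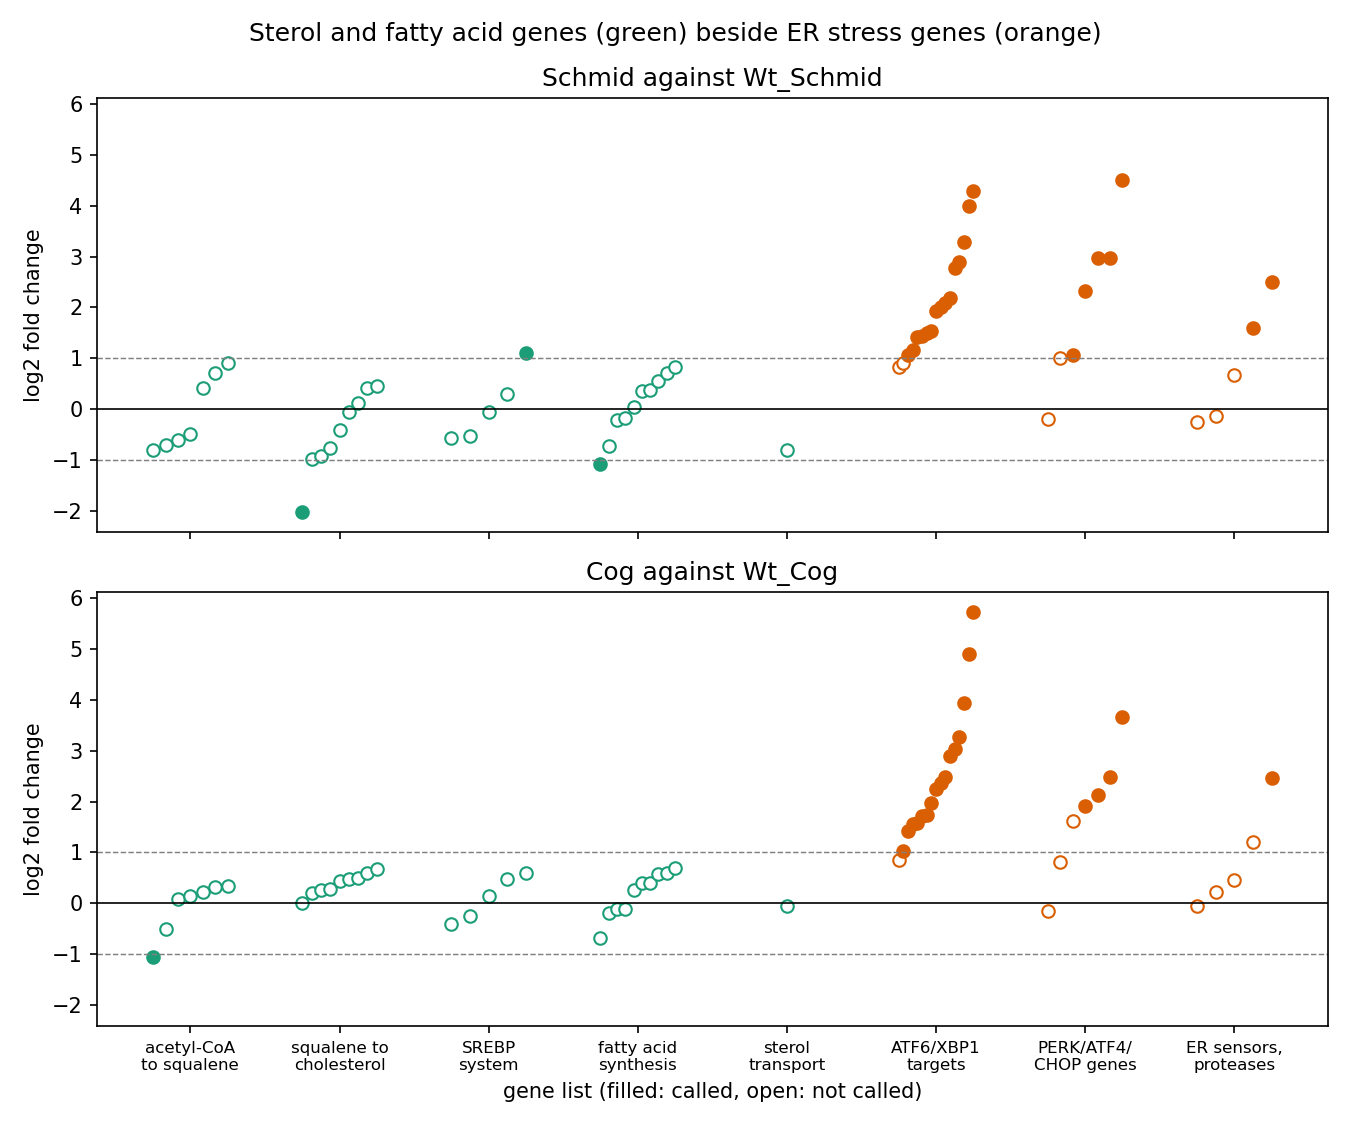
Log2 fold change of each gene in Schmid (top) and Cog (bottom) for the sterol and fatty acid genes by branch (green) and the ER stress genes by arm (orange), with filled points called and dashed lines at 2-fold. Within a list the genes are sorted by their change. The Atf6/Xbp1 targets lie between 0.82 and 4.28 in Schmid and between 0.86 and 5.73 in Cog, while the green points lie between -2.03 and 1.11 and between -1.05 and 0.70.

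The changes of 4 of the 32 genes differed between the mutants (Hmgcs1, Lss, Dhcr7 and Scap), which is 12.5% and below the 17.7% of all genes. All 4 were more negative in Schmid, as were 64.8% of the genes that differed over the whole array. The mutants were each compared with their own wildtype, so these comparisons shared no arrays.

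Of the further sterol and fatty acid genes outside the set, 19 were measured. In Schmid, 2 were called higher and 3 lower, against 5.81% and 5.7% of all genes, and in Cog none was called. Of the 19, 8 were higher and 7 lower in Schmid at an unadjusted limma p of 0.05 or less, against 16.7% and 23.9% of all genes. In Cog 4 were higher and 2 lower at that p, against 12.2% and 10.4%. At the adjusted p with no fold limit, 9 of the 19 changed in Schmid, against 7052 of 27935 genes. In Cog 1 did, against 1478. The change differed between the mutants for 7 of the 19, against 17.7% of all genes, with 4 more negative in Schmid and 3 more positive. Tm7sf2, a sterol reductase that works beside Dhcr7 in the late pathway, read 11.59, 12.58 and 12.30 in Schmid against 14.28, 14.55 and 14.35 in Wt_Schmid, and 14.59, 13.63 and 13.53 in Cog against 14.20, 13.74 and 13.65 in Wt_Cog. Like Dhcr7 it was lower in every Schmid array, by 4.72-fold (limma adjusted p of 0.00109), and changed by 0.05 in Cog, with a difference of -2.29 (0.00775). Hsd17b12, an enzyme of fatty acid elongation, was also lower in Schmid (-1.14, limma adjusted p of 0.0393) but was not well above background on any Cog or Wt_Cog array. Elovl7, an elongase of saturated long chains, was 3.89-fold higher and Acsl3, which activates fatty acids with CoA, 2.58-fold higher in Schmid, with limma adjusted p values of 0.00379 and 0.00767.

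Of 10 genes of cholesterol export and sterol handling, 3 were called higher and 1 lower in Schmid, against 5.81% and 5.7% of all genes. Osbp, a sterol carrier at ER contacts, changed by 1.74, Soat1, which esterifies cholesterol for storage, by 1.37, Abcg1, an exporter, by 1.22 and Apoe, the lipoprotein component, by -1.64. Of the 10, 5 were higher and 2 lower in Schmid at an unadjusted limma p of 0.05 or less, against 16.7% and 23.9% of all genes. At the adjusted p with no fold limit, 6 of the 10 changed in Schmid, against 7052 of 27935 genes. In Cog none of the 10 was called, with none higher and 2 lower at that unadjusted p, against 12.2% and 10.4% of all genes. Of 10 genes of fatty acid oxidation none was called in either mutant. At an unadjusted limma p of 0.05 or less, 1 was higher and 1 lower in Schmid, against 16.7% and 23.9% of all genes. In Cog 2 were lower at that p, against 10.4%.

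The wildtype arrays of replicate 1 stood apart for a subset of the genes. For 11 of the 32 genes (34.4%), replicate 1 was the highest array of both Wt_Schmid and Wt_Cog, which held for 14.9% of all genes. Scd1, which makes oleate from stearate, read 15.55 in Wt_Schmid replicate 1 against 13.88 and 14.27 in the others, and 15.74 in Wt_Cog replicate 1 against 14.22 and 13.76. Insig2 stood 1.42 and 1.74 above the mean of the others on the log2 scale, and Idi1, which isomerises the isoprenoid unit, 0.78 and 1.63. Others went the opposite way, such as Acaca at -1.25 and -0.37. These arrays lay on different slides, and their deviations from the group means correlated by 0.505 across the 12818 probes that passed the background call everywhere, against 0.116 and 0.275 for the arrays of replicates 2 and 3. Without Wt_Schmid replicate 1, the genes called higher in Schmid were 4 rather than 1, with Fdps, Fads1 and Scd2 beside Srebf1. The share of all genes called in that fit is not given, so this count is not read as a result about these genes.

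**Figure D4:**
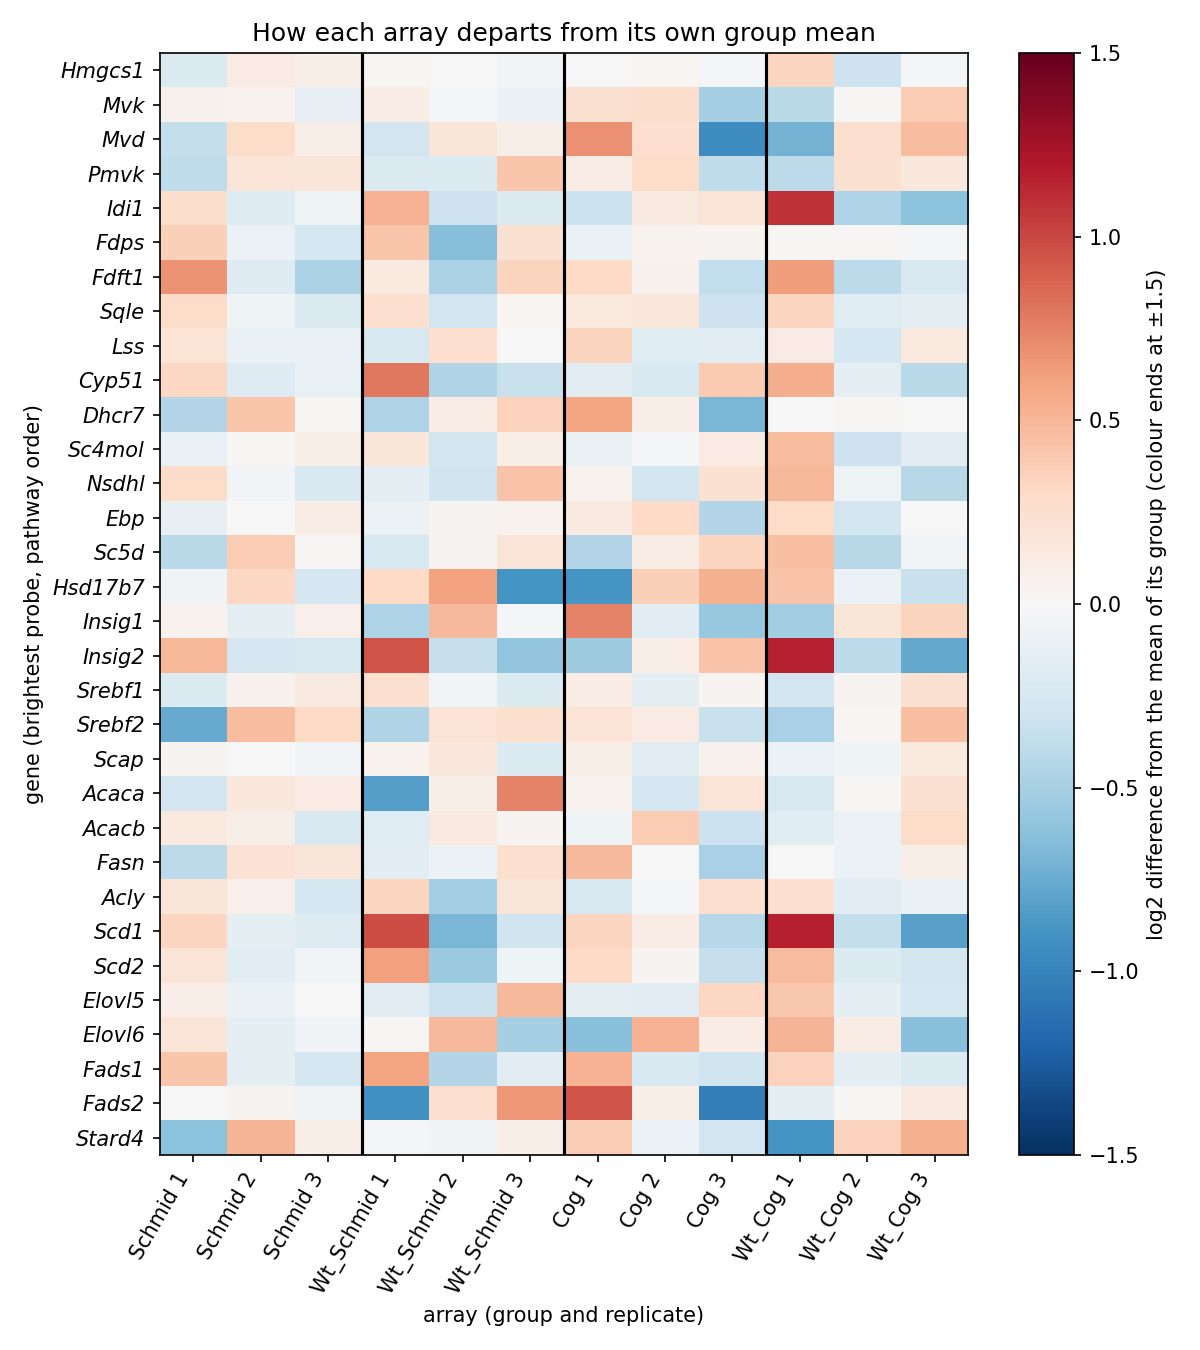
Difference of each array from the mean of its own group (log2, colour), for the 32 genes in rows and the 12 arrays in columns. Replicate 1 of both wildtype groups is red for Insig2, Scd1, Idi1 and Cyp51, and Wt_Schmid replicate 1 is blue for Fads2 and Acaca.

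Cell type markers were read beside these results, since in bulk tissue fewer cells of a type and less RNA per cell cannot be told apart. Col10a1, which marks hypertrophic chondrocytes, was well above background on all 12 arrays, and its probe does not show the point mutation. Among adipocyte genes, Lep passed the background call on 0 of 12 arrays and Adipoq on 1 of 12. By contrast 4 of the 9 (Fabp4, Plin1, Cidec and Pparg) passed it on all 12. Fabp4 changed by -1.99 in Schmid (limma adjusted p of 0.0757) and Pparg by 0.69 (0.0263). None of the 9 was called in either mutant. At an unadjusted limma p of 0.05 or less, 1 was higher and 4 lower in Schmid, against 16.7% and 23.9% of all genes. In Cog 1 was higher at that p, against 12.2%. The summed linear intensity of the adipocyte list was 10700 to 13600 in Schmid, 17200 to 19400 in Wt_Schmid, 16800 to 40700 in Cog and 16500 to 55200 in Wt_Cog. Of 5 erythroid genes 3 were called lower in Schmid, and the list summed to 24200 to 67400 in Schmid and 257000 to 974000 in Wt_Schmid, against 98000 to 259000 in Cog and 152000 to 313000 in Wt_Cog. Of 6 endothelial genes 3 were called lower in Schmid, and the list summed to 6030 to 8620 in Schmid and 19900 to 33500 in Wt_Schmid, against 12200 to 21200 in Cog and 25200 to 32100 in Wt_Cog. Of the other lists, 3 of 7 hypertrophic, 1 of 6 chondrocyte, 1 of 4 osteoblast, 1 of 5 osteoclast and 1 of 4 macrophage genes were called lower in Schmid, and none of 6 neutrophil or 4 muscle genes. Over the whole array 5.7% of genes were called lower in Schmid and 0.833% in Cog. In Cog, Ihh, a signal of early hypertrophic cells (-1.36, limma adjusted p of 0.0359), and Dmp1, an osteocyte matrix gene (-1.90, 0.0431), were called lower. In Schmid the erythroid, endothelial and adipocyte sums were thus lower, beside the lower Dhcr7, Lss, Scap and Elovl6. Most other lists had 1 gene or none called there, but the fall in sums was not particular to those 3 lists. The hypertrophic sum was 479000 to 600000 in Schmid and 752000 to 1300000 in Wt_Schmid, and the chondrocyte sum 1510000 to 1680000 and 1850000 to 2150000. The osteoblast, osteoclast and macrophage sums were also lower without overlap, and only the neutrophil and muscle sums overlapped. In Cog the endothelial sum was lower too, as was the osteoblast sum (305000 to 395000 against 414000 to 503000 in Wt_Cog). The neutrophil sum was higher in Cog (17600 to 123000 against 8600 to 13900), and the sums of the other lists overlapped. Only Ihh and Dmp1 of the marker genes were called in Cog, beside the lower Mvk. The part of these markers in those results was not tested.

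Of the 32 genes, 31 were well above background on all 12 arrays at their brightest probe, and no probe of the set was saturated. The share of spots well above background ran from 39.6% to 61.8% over the arrays, and 3 mice per group limit the precision. Mutant and wildtype of a line were always on separate slides, so a slide effect and a mutant effect cannot be told apart. Of the 7 genes with more than 1 probe well above background on all arrays, probes had the same sign in both mutants for Pmvk and Hsd17b7 and not for the other 5.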

How the data were processed

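The files hold Agilent Feature Extraction 9.5.3 output of 12 single-colour arrays. Per the file headers, the deposited values are raw Cy3 intensity of each spot and its local background, annotated on mm7. The authors also deposited log2 values made with normexp background correction (offset 50), quantile normalisation and averaging of duplicate spots in limma, with control probes removed; these were used as an alternative. Here the same steps were run on the intensities (limma 3.58.1, R 4.3.3), leaving out spots marked as non-uniform or as population outliers, and 41174 probes were fitted over the 4 groups. Contrasts were each mutant against its own wildtype, the difference of these, and wildtype against wildtype, with Benjamini-Hochberg adjustment over all probes. Differences between mutants were called at an adjusted p of 0.05 or less with no fold limit. The fit was tested on simulated data. Genes, lists and tests were chosen with earlier results of these data known. Genes described on every array were those of the SREBP system, those called on the brightest probe, the largest change of each branch, and those whose probes differed in call; the others singled out (Fasn, Stard4, Tm7sf2 and the replicate 1 examples) were named by the largest change of a list or chosen after their values were seen. Arrays were checked for pairing by replicate number. After group means were removed, same-numbered Schmid and Wt_Schmid arrays correlated by 0.306, 0.284 and 0.117 over 12818 probes well above background on all arrays (0.192, 0.17 and 0.065 over all probes), Cog and Wt_Cog arrays by -0.209, 0.153 and -0.201, and Wt_Schmid and Wt_Cog arrays by 0.505, 0.116 and 0.275. Over the probes above background, every pair was thus above 0.1 for the Schmid line and for the wildtype groups. Over all probes the third Schmid pair was not, and the wildtype groups are mice of different lines. The main fit took no account of pairing. A fit with the replicate number as a block over all 12 arrays was an alternative. That block also covers the Cog line, where the pairs of replicates 1 and 3 correlated negatively, so its p values for Cog rest on a pairing not seen there. Nothing in the labels says that a number marks a shared litter or day. Promoter windows came from RefSeq tables for GRCm38.p6 and were matched by symbol; no annotation for mm7 was used. Sel1l, Ppp1r15a, Me1 and Bglap2 of the comparison lists matched no gene name of the array.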

Additional observations from a re-analysis of the deposited data

Results flagged for a closer look

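The difference between the mutants' changes, Schmid minus Cog, passed a limma adjusted p of 0.05 or less at 9 of the 64 probes (14.1%), which is below the 17.7% of all genes called in that comparison on their brightest probe. At brightest probes it was -0.75 for Hmgcs1, -1.41 for Lss, -2.31 for Dhcr7 and -0.72 for Scap. At dimmer probes it was -1.65 for Fdps, -1.55 for Hsd17b7, -1.1 for Acaca, 0.83 for Srebf2 and 0.7 for Dhcr7. The probes of Dhcr7 and those of Srebf2 differed in the sign of this difference. At both probes with a positive difference, the signal was well above background on 6 of 12 arrays.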

How the results depend on the processing

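Srebf1 in Schmid was called under all 23 alternatives (log2 1.01 to 1.47). Dhcr7 in Schmid stayed lower under all of them and was called under all but the mean over a gene's probes (-2.26 to -0.88), and its difference between mutants was called under all 22 that give one. Main counts were 1 gene higher and 2 lower in Schmid, 0 higher and 1 lower in Cog, 4 differing between mutants and 1 between wildtypes. With the processed signal at the 75th percentile, 1 gene was lower in Schmid, 0 in Cog, 1 differed between mutants and 0 between wildtypes. With normexp at the 75th percentile, 2 were higher in Schmid, 0 lower in Cog and 2 differed between mutants. Higher in Schmid were 2 genes with array row trends removed, and 2 with row and GC trends removed, a setting chosen after seeing the data. Lower in Schmid was 1 gene with the deposited log2 values, 1 (Dhcr7) with the replicate block and 1 (Elovl6) with the mean over probes. Lower in Cog were 0 genes with the mutant and its own wildtype alone, 0 with the replicate block and 0 with the mean over probes. With slide as a random block (correlation -0.122), 9 genes differed between mutants and 3 between wildtypes. Keeping marked spots or filtering on background moved none of these counts by over 1.5 times. Leaving out 1 array gave 1 to 4 genes higher and 1 to 3 lower in Schmid, 0 higher and 0 to 1 lower in Cog, 2 to 6 differing between mutants and 1 to 3 between wildtypes. Among Srebf1, Srebf2, Scap, Insig1, Insig2, Hmgcs1, Mvk, Lss, Dhcr7 and Elovl6, for which single-gene values were computed with the replicate block, it changed only the calls of Elovl6 in Schmid, Mvk in Cog (limma adjusted p of 0.0552) and the difference of Hmgcs1 (0.0729).

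The sign turned with the mean over probes for Hmgcs1 (0.1), Insig1 (0.03), Lss (0.22) and Srebf2 (0.02) in Schmid, for Dhcr7 (-0.08), Insig1 (0.11), Insig2 (0.39) and Srebf2 (-0.08) in Cog, and for the differences of Insig1 (-0.08) and Srebf2 (0.1). It turned with normexp at the 75th percentile for Hmgcs1 (-0.09) and Scap (-0.13) in Cog. For the difference of Insig1 it turned with the processed signal (-0.05), without row trends (-0.05) and without row and GC trends (-0.06). Leaving out 1 array turned the difference of Insig1 (-0.08 to 0.57), Insig1 in Schmid (-0.29 to 0.19), Insig1 in Cog (-0.63 to 0.02), Dhcr7 in Cog (-0.01 to 0.62) and Insig2 in Cog (-0.79 to 0.18). The cause was not tested. The median change of all genes in Schmid, -0.09 here, was -0.41 with the processed signal and -0.35 with normexp at the 75th percentile, and that of the 32 genes was -0.38 and -0.13. In Cog these settings gave 0.31 and 0.01 for all genes, and 0.11 and 0.06 for the 32.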
